A study of Mus musculus with 11 samples.

Results

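The Reg family of secreted lectins was measured on Affymetrix arrays of mouse stomach tissue: Reg1, Reg2, Reg3a, Reg3b, Reg3d, Reg3g and Reg4, 7 of 19938 genes with a probe set that names 1 gene symbol. These genes were chosen by family, with values of these arrays known, so their levels and differences are given as a description without p-values. Each has 1 such probe set (Reg1 10539200, Reg2 10539194, Reg3a 10539186, Reg3b 10539179, Reg3d 10545561, Reg3g 10545569 and Reg4 10494636). The 11 arrays held 1 sample each. Normal gastric epithelium (NGE, n = 4) came from mice without the Cre transgene. One tumour group, pChePS_GC (n = 4), was gastric cancer tissue of mice with Pdx-1-Cre, 1 floxed and 1 wild-type Cdh1 allele (Cdh1F/+), and homozygous floxed alleles of Trp53 (Trp53F/F) and of Smad4 (Smad4F/F). The other, pCP_GC (n = 3), was gastric cancer tissue of mice with Pdx-1-Cre and homozygous floxed alleles of Cdh1 (Cdh1F/F) and of Trp53 (Trp53F/F), with no floxed Smad4 named. Cre therefore marks every tumour sample and no NGE sample, floxed Trp53 and at least 1 floxed Cdh1 allele are common to all tumours, and both tumour groups are labelled as diffuse-type cancer. No group was treated, and the labels give no ages. The Pdx1 promoter that drives Cre is active in the developing pancreas, duodenum and distal stomach. Whether each sample was taken from its own mouse is not stated in the labels, so errors and p-values cover the spread among these samples and no more.

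Reg proteins are small secreted C-type lectins made by epithelia of the gut and pancreas. Reg3b and Reg3g are antibacterial: Reg3g binds peptidoglycan of Gram-positive bacteria, and both are induced in the intestine by interleukin-22 acting through STAT3. Reg1 is a growth-promoting protein of gastric enterochromaffin-like cells and pancreatic acinar cells, in the stomach a known target of gastrin. Reg2, Reg3a and Reg3d are best known from the pancreas, and Reg4 marks deep secretory and enteroendocrine cells of the intestine.

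Values are normalized log2 signals as deposited, on which a difference of 1 is a 2-fold change, and the number of arrays limits their precision. Array medians lay between 7.63 and 7.81. Chemosensory receptor genes (olfactory and vomeronasal, 1190 in all) served as a guide to background: their 95th percentile, called the receptor percentile here, stood at 7.24 for NGE, 6.99 for pChePS_GC and 6.86 for pCP_GC. All 12 markers of gastric epithelium lay above that level in every group. Cdh1 read 12.93 to 13.02 in NGE, 8.73 to 11.07 in pChePS_GC and 10.52 to 12.02 in pCP_GC, and Smad4 read 11.05 to 11.16, 10.17 to 11.02 and 11.41 to 11.49; Trp53 was not analysed here. Xist, an RNA of female cells, read 11.54 to 12.66 in NGE and at most 6.02 in the tumours. Eif2s3y, a Y-linked gene, read 4.94 to 5.19 in NGE and 8.08 to 11.09 in the tumours. Sex and the tumour groups therefore cannot be told apart in any comparison with NGE, for any gene. Summed linear levels of 8 macrophage markers ran from 1412 to 1709 in NGE, 14970 to 22450 in pChePS_GC and 11990 to 24320 in pCP_GC, and those of 6 fibroblast markers from 1727 to 2018, 13770 to 30490 and 17410 to 30380. The sums of 8 parietal cell markers ran the other way, from 42670 to 45550 in NGE, 3219 to 5383 in pChePS_GC and 3054 to 7034 in pCP_GC. In bulk tissue such as this, fewer cells of a type and less RNA per cell cannot be told apart. The part of cell composition in the Reg differences was not tested.

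Promoter sequence is shown for the 3 members whose signals were high in tumours and for Reg3d, a neighbour whose signal stayed dim, so that genes of unlike behaviour can be set side by side. All 7 members matched the RefSeq promoter table (GRCm38.p6) by symbol. There are 6 members on chromosome 6, in the order Reg3b, Reg3d, Reg3a, Reg2, Reg1 and Reg3g, with a pseudogene, Gm52853, between the last 2, and Reg4 lies on chromosome 3. The windows are the 250 bases before the annotated start, written 5′ to 3′ in the direction of the gene, with matches to 4 searched motifs in capitals: chr6:78370635-78370884 (plus strand) for Reg3b, chr6:78468875-78469124 (minus strand) for Reg3g, chr6:78425733-78425982 (plus strand) for Reg1 and chr6:78378866-78379115 (minus strand) for Reg3d.
Reg3b: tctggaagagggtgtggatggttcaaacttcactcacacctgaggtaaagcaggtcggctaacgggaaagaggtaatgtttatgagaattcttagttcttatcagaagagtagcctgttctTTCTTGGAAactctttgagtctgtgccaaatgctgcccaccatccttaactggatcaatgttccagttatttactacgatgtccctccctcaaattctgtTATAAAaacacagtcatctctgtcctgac
Reg3g: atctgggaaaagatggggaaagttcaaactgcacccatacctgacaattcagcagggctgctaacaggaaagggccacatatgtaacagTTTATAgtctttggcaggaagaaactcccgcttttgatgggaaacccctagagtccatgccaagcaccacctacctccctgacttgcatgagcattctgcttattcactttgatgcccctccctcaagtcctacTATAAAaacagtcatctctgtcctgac
Reg1: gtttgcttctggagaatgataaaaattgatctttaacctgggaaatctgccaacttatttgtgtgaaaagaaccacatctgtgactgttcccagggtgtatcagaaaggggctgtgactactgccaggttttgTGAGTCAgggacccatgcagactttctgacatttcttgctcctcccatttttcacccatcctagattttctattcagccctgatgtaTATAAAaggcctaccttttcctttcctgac
Reg3d: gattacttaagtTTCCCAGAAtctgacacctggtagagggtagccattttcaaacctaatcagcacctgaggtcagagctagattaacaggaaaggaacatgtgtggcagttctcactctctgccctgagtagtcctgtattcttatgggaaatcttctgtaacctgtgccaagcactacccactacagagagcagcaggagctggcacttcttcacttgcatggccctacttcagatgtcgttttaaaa

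The motifs were searched on both strands of 32851 RefSeq promoter windows of this length. TTCNNNGAA, the palindrome read by STAT proteins, was in 7.02% of all windows and in those of Reg3b (TTCTTGGAA, at -129 to -121 from the start) and Reg3d (TTCCCAGAA, at -238 to -230). The motif TATAAA, which gives the core promoter element its name, was in 12.4% of windows and in those of Reg1, Reg2, Reg3b and Reg3g. On the gene's own strand it began 30 bases before the start in Reg1 and Reg2 (-30 to -25), at -29 in Reg3b and at -27 in Reg3g, which also holds the letters TTTATA, the same motif on the opposite strand. TGANTCA, the AP-1 palindrome, was in 6.75% of windows and in that of Reg1 (TGAGTCA, at -117 to -111). TTGCNNAA, a C/EBP-type site, was in 9.56% of windows and in those of Reg2 and Reg3a. No searched motifs overlapped in the windows shown. Of the 21 pairs of members, Reg3b and Reg3g had the most identical positions, 173 of 247 aligned (70.0%), and the fewest gap positions, 6, against 129 to 156 identical positions and 42 to 108 gap positions in the other 20 pairs. As a share of aligned positions Reg3a and Reg3g were higher, at 71.9% (143 of 199), with 102 gap positions. For Reg3b and Reg3g the longest shared run was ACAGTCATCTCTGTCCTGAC, which ends both windows at the start site. Shared runs of the other pairs were 6 to 12 bases long. These matches are letters in a window and say nothing of binding.

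Reg3g and Reg3b, the antibacterial lectins, showed the widest differences of the family. The NGE arrays read 6.90, 5.50, 7.55 and 6.35 for Reg3g, the pChePS_GC arrays 13.03, 12.42, 13.14 and 13.57, and the pCP_GC arrays 7.69, 12.98 and 10.94. Every tumour array lay above every NGE array, but pCP_GC replicate 1 did so by little, and pCP_GC replicate 2 lay within the pChePS_GC range. Its mean was 6.57 ± 0.87 for the normal group (SD, n = 4), 13.04 ± 0.47 for pChePS_GC (SD, n = 4) and 10.53 ± 2.67 for pCP_GC (SD, n = 3). The Reg3g mean was 6.47 higher in pChePS_GC than in NGE on the log2 scale (SE 0.89, 88.5-fold) and 3.96 higher in pCP_GC than in NGE (SE 0.96, 15.6-fold). Since its NGE mean lay under the receptor percentile, both are lower bounds where that level is background.

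Reg3b followed the same pattern. Its normal arrays read 6.52, 6.43, 7.43 and 6.63, its pChePS_GC arrays 12.48, 12.55, 12.91 and 13.52, and its pCP_GC arrays 7.86, 12.38 and 9.60. Here all 3 groups were apart: the lowest pChePS_GC array stood just above pCP_GC replicate 2, and pCP_GC replicate 1 stood just above the highest NGE array. Means were 6.75 ± 0.46 (SD, n = 4), 12.86 ± 0.47 (SD, n = 4) and 9.95 ± 2.28 (SD, n = 3). The difference from NGE was 6.11 in pChePS_GC (SE 0.74, 69.3-fold) and 3.20 in pCP_GC (SE 0.80, 9.18-fold). As for Reg3g, the NGE mean lay under the receptor percentile, and these are lower bounds where that level is background. NGE replicate 3 was the highest of the normal arrays for both lectins, and its Reg3b value of 7.43 and Reg3g value of 7.55 were the only NGE values of this pair above the NGE receptor percentile. Reg3b and Reg3g are close relatives, and the probe sequences were not used here, so hybridisation of either transcript to the other's probe set was not tested.

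Reg1, the growth-promoting lectin, differed from the pair in its normal level. Its values were 6.63, 7.33, 9.24 and 9.81 for NGE, 13.21, 13.10, 12.75 and 12.58 for pChePS_GC, and 10.18, 12.97 and 11.30 for pCP_GC. The normal arrays were spread out, with replicate 1 under the receptor percentile, and only 8 of 19938 genes had a larger SD in NGE than its 1.51. All tumour arrays were still above all normal arrays. The Reg1 mean was 4.66 higher in pChePS_GC than in NGE (SE 0.72, 25.2-fold) and 3.23 higher in pCP_GC (SE 0.78, 9.39-fold). Its NGE mean of 8.25 was above the receptor percentile, unlike those of Reg3b and Reg3g. With the arrays weighted by their fit to the model, these Reg1 differences were 3.91 and 1.83.

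**Figure D1:**
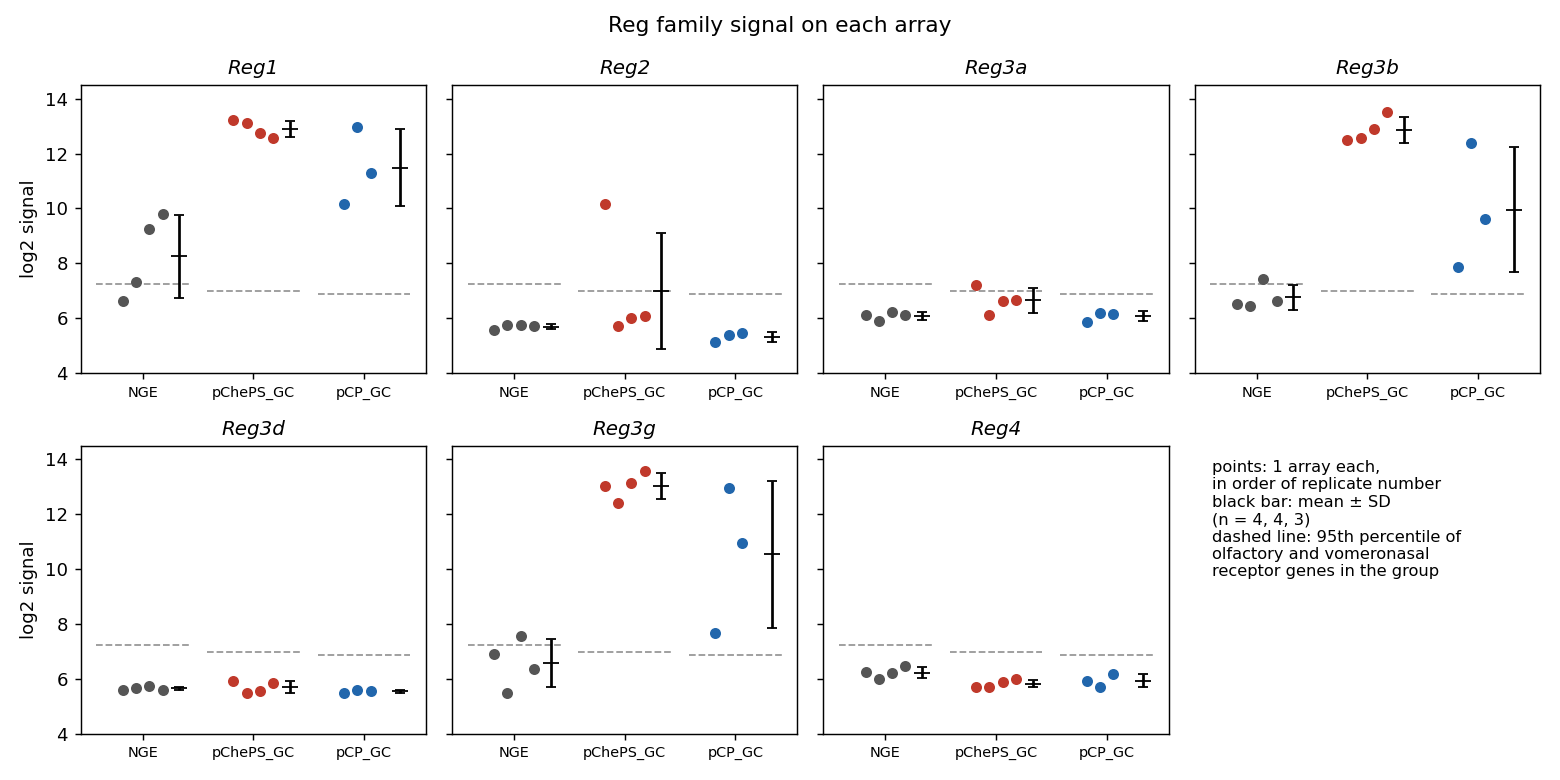
Log2 signal of the 7 Reg genes on each array (points, in order of replicate number) in NGE, pChePS_GC and pCP_GC, with mean ± SD as black bars (n = 4, 4 and 3) and the receptor percentile of each group as dashed lines. Reg1, Reg3b and Reg3g sit between 12.42 and 13.57 on every pChePS_GC array and are spread out in pCP_GC, while Reg2 is high on 1 array only, at 10.16.

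Reg2, a pancreatic member, was high on a single array. The pChePS_GC arrays read 10.16, 5.73, 6.01 and 6.08, against 5.55, 5.74, 5.76 and 5.72 for NGE and 5.11, 5.38 and 5.47 for pCP_GC. Replicate 1 of pChePS_GC stood alone, and every other value of Reg2 lay under the receptor percentile of its group. The pChePS_GC mean was 1.30 above that of NGE (SE 0.79), and 0.25 above it without that replicate. In pCP_GC it was 0.37 under NGE on the log2 scale (difference -0.37, SE 0.86), with groups that did not overlap, both dim. The same pChePS_GC array held the highest value of Reg3a, at 7.22, against 6.10, 6.64 and 6.65 in the rest of its group, 5.88 to 6.21 in NGE and 5.86 to 6.20 in pCP_GC. That value was the only one of Reg3a above its group's receptor percentile. The Reg3a difference between pChePS_GC and NGE was 0.57 (SE 0.20), and 0.38 without this replicate.

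Some genes of pancreatic acinar cells were also high on that array. On pChePS_GC replicate 1 the chymotrypsinogen gene Ctrb1 read 11.59 and the carboxypeptidase gene Cpa1 read 9.71, against 7.13 to 8.71 and 6.85 to 7.86 on the other tumour arrays. Of 17 measured acinar markers, 9 were highest of the 7 tumour arrays there, 2 of them, Ctrb1 and Cpa1, by more than 2-fold over the next array. The sum over the acinar list did not single out that array, where it was 12.96 on the log2 scale against 13.07 on pChePS_GC replicate 4, 13.22 on pCP_GC replicate 1 and 13.73 on pCP_GC replicate 2. Such a sum follows its brightest genes, and some were bright in NGE, where Clps read 14.01 to 14.25 and Pla2g1b 13.63 to 13.90. On pCP_GC replicate 2 Clps read 12.61 and Pla2g1b 11.96. Zg16, also on the goblet cell list, read 11.88 on pChePS_GC replicate 4. The summed linear level of the acinar list ran from 36360 to 44630 in NGE, 5309 to 8602 in pChePS_GC and 5713 to 13540 in pCP_GC, and 5, 4 and 6 of the 17 genes had group means under the receptor percentile. Ins2, an insulin gene of islet cells, read 6.35 to 7.09 over all 11 arrays and was under that percentile in every group. The part of acinar transcripts in the Reg2 value was not tested.

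Reg3d and Reg4 stayed dim throughout. Reg3d read 5.61 to 5.72 in NGE, 5.48 to 5.92 in pChePS_GC and 5.49 to 5.61 in pCP_GC, and its differences from NGE were 0.05 (SE 0.10) and -0.11 (SE 0.11). Reg4 read 6.23 ± 0.19 in NGE (SD, n = 4, highest 6.46), 5.70 to 5.99 in pChePS_GC and 5.71 to 6.19 in pCP_GC. It was the only member with a lower mean in both tumour groups and every pChePS_GC array under every NGE array. The groups nearly touched, at 5.995 for the highest pChePS_GC array and 5.998 for the lowest NGE array. On the log2 scale Reg4 was lower by 0.40 in pChePS_GC (difference -0.40, SE 0.13) and by 0.29 in pCP_GC (difference -0.29, SE 0.14). All 3 group means of both genes were under the receptor percentile. The summed level of 7 goblet cell markers, on the log2 scale, ran from 12.97 to 15.71 over the tumour arrays and was highest on pChePS_GC replicate 4, where Reg4 read 5.99.

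Counted by the same fit as all genes, 4 of the 7 members passed as higher (Reg1, Reg3a, Reg3b and Reg3g) and 1 as lower (Reg4) in pChePS_GC against NGE, beside 42.1% of all genes, 18.7% higher and 23.4% lower. In pCP_GC against NGE 3 passed as higher (Reg1, Reg3b and Reg3g), beside 51.8% of all genes, 20% higher and 31.8% lower. Groups did not overlap for 3 members higher (Reg1, Reg3b and Reg3g) and 1 lower (Reg4) in pChePS_GC against NGE, beside 40.6% of all genes, 17.7% higher and 22.9% lower. In pCP_GC against NGE they did not overlap for the same 3 higher and for Reg2 lower, beside 59.6% of all genes, 24% higher and 35.6% lower. The comparisons share the NGE arrays, and the members were chosen with these contrasts known, so nothing is read from these counts. The median difference over the 7 members was 1.30 in pChePS_GC and -0.02 in pCP_GC, against -0.10 and -0.12 over all genes. The value of 1.30 is that of Reg2, which rests on 1 array: without pChePS_GC replicate 1 the median member was Reg3a, at 0.38.

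**Figure D2:**
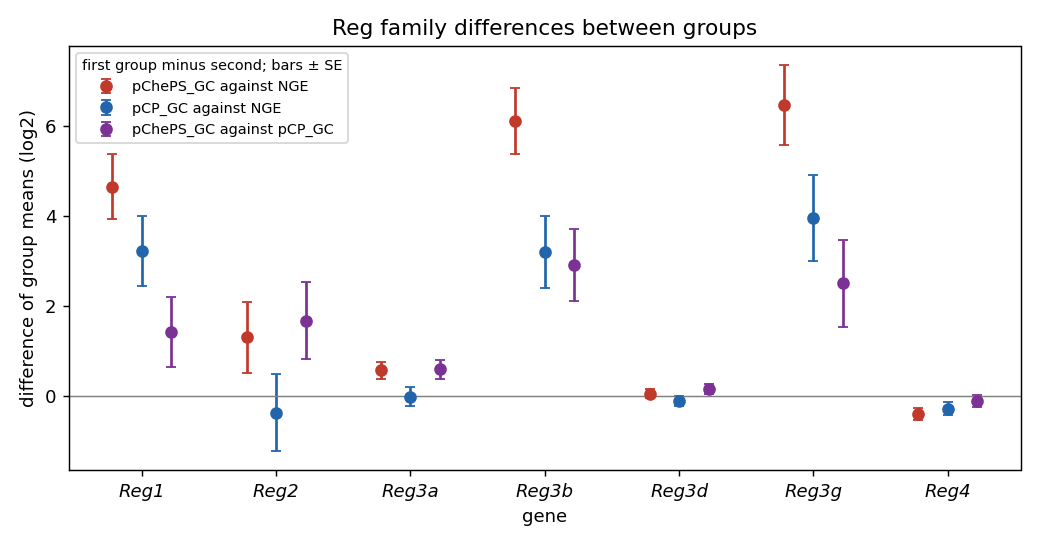
Difference of group means on the log2 scale for each Reg gene (points) with its standard error (bars) in the 3 comparisons, first group minus second. Reg1, Reg3b and Reg3g lie between 3.20 and 6.47 in both comparisons with NGE, and the error of the tumour comparison is large beside its size for Reg1 (1.43, SE 0.78) and Reg2 (1.67, SE 0.86).

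The tumour groups were compared next, to set the 2 tumour genotypes side by side. They differ in Smad4 and also in the number of floxed Cdh1 alleles, and these differences cannot be told apart. Reg3b was 2.92 higher in pChePS_GC (SE 0.80, 7.54-fold), Reg3g 2.51 higher (SE 0.96, 5.68-fold), Reg2 1.67 higher (SE 0.86) and Reg1 1.43 higher (SE 0.78, 2.69-fold). Counted by the fit over all genes, 0 of the 7 members passed at an adjusted p under 0.05. Of all genes 0.366% passed at that limit (limma, 73 of 19938, 0.115% higher and 0.251% lower). At an unadjusted p under 0.05 there were 3 members, and the share of all genes under that looser limit was not counted. As above, the members were chosen with this contrast known, and nothing is read from the count. The groups did not overlap for Reg2 and Reg3b, both higher in pChePS_GC, beside 13.9% of all genes, 9.5% higher and 4.4% lower. For Reg2 the difference was 0.62 without pChePS_GC replicate 1. For Reg3b, Reg3g and Reg1 the value moved with the pCP_GC arrays. Without pCP_GC replicate 2 the difference was 4.13 for Reg3b, 3.73 for Reg3g and 2.17 for Reg1. Without pCP_GC replicate 1 it was 1.87, 1.08 and 0.77. Against NGE, the pCP_GC differences of Reg3b, Reg3g and Reg1 were 1.98, 2.74 and 2.49 without replicate 2, and 4.24, 5.38 and 3.88 without replicate 1.

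The spread among the pCP_GC arrays was part of how these genes were chosen, and it is given as a description. It was wide for 3 of the 7 members. Reg3g had an SD of 2.67 over the 3 arrays, and only 2 of 19938 genes had a larger one. For Reg3b the SD was 2.28 with 11 genes larger, and for Reg1 it was 1.41 with 112 genes larger, where the median gene had 0.155. The other members were not wide: 39.9% of genes had a larger SD than Reg2, 41.6% than Reg3a, 87.9% than Reg3d and 26.5% than Reg4. From the lowest to the highest pCP_GC array Reg3g spanned 39.0-fold, Reg3b 23.0-fold and Reg1 6.94-fold. The order was the same for the 3 genes, with replicate 2 highest, replicate 3 between and replicate 1 lowest. In pChePS_GC the same genes spanned 2.21-fold, 2.05-fold and 1.55-fold. There, 2424, 2410 and 5825 genes had a larger SD.

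Other measures differed between the 3 pCP_GC arrays as well. On replicate 2 the summed level of macrophage markers was 14.57 on the log2 scale, against 13.83 on replicate 3 and 13.55 on replicate 1, and that of fibroblast markers was 14.89 against 14.35 and 14.09. These 2 sums stand in the order of the 3 Reg genes. The same order held for parietal cell markers, at 11.58, 12.78 and 11.65 on replicates 1, 2 and 3. It also held for markers of T cells and type 3 lymphoid cells, at 10.03, 10.60 and 10.12. The chief cell sum was highest on replicate 2 as well, at 14.17, but replicate 1 read 12.71 and replicate 3 read 11.49. Atp4a, a proton pump subunit of parietal cells, read 11.40 on replicate 2 and 7.57 and 7.48 on replicates 1 and 3. Other sums were highest on replicate 3 or on replicate 1. On replicates 1, 2 and 3 neutrophil markers summed to 10.63, 11.26 and 11.88, Paneth cell markers to 9.86, 10.83 and 10.97, and enterocyte markers to 13.17, 13.34 and 13.78. Replicate 1, lowest for the 3 Reg genes, was highest for gastric epithelium markers, at 17.12, 16.96 and 16.83. It was also highest for goblet cell markers (15.06, 14.32 and 14.59), squamous markers (12.18, 10.41 and 11.87) and islet markers (9.86, 9.22 and 9.46). The part of these markers in the Reg spread was not tested.

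Over the 7 tumour arrays Reg3b and Reg3g correlated at r = 0.97 (Spearman rho = 0.89, and r = 0.75 without the 2 arrays farthest from the median). Reg1 correlated with Reg3b at r = 0.94 and with Reg3g at r = 0.93, but rho was 0.39 for each. Without 2 arrays r was -0.89 and -0.75, so the relation of Reg1 to the pair rests on the 2 low pCP_GC arrays, and among the remaining arrays the order was turned. Reg1 was highest on pChePS_GC replicate 1 and lowest of that group on replicate 4, where Reg3b and Reg3g were highest. Reg2 and Reg3a correlated at r = 0.88 (rho = 0.86, and r = 0.85 without 2 arrays). Apart from pChePS_GC replicate 1, all values of both genes lay under the receptor percentile of their group. Reg3a also correlated with Reg3d, which was dim throughout, at r = 0.87 (rho = 0.93, and r = 0.52 without 2 arrays). These correlations describe 7 arrays that fall into 2 genotypes, out of 21 pairs computed.

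By a fixed rule, the 5 genes most like each variable member over the 7 tumour arrays were taken from 3918 genes with a range of at least 2-fold there. For Reg3b they were the matrix protein gene Thbs2 (r = 0.99), the metalloprotease gene Adamts12 (r = 0.98), the macrophage genes Cd68 and Itgam (r = 0.96 each) and the protease inhibitor gene Timp1 (r = 0.96). For Reg3g they were Adamts12 (0.98), Thbs2 (0.96), Cd68 (0.96), Rnf157 (0.92) and Timp1 (0.91), 4 of which are on the Reg3b list. For Reg1 they were Col8a1 (0.97), Abca1 (0.95), Timp1 (0.95), Sting1 (0.94) and Tgm2 (0.94). Timp1 alone was on all 3 lists. Leaving out the 2 arrays farthest from the median, r was 0.89 for Thbs2 with Reg3b and 0.95 with Reg3g, but 0.39 for Cd68, 0.07 for Itgam and -0.09 for Timp1 with Reg3b, and 0.40 for Cd68 and -0.27 for Timp1 with Reg3g. With Reg1 it was 0.94 for Sting1 and 0.86 for Col8a1, but 0.51 for Abca1, 0.34 for Tgm2 and -0.29 for Timp1. For Reg2 the list was Slc6a15, Npbwr1, Btn1a1, Sall4 and Cuzd1 (r = 0.99 each), all of them highest on pChePS_GC replicate 1, and Cuzd1 is an acinar marker.

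**Figure D3:**
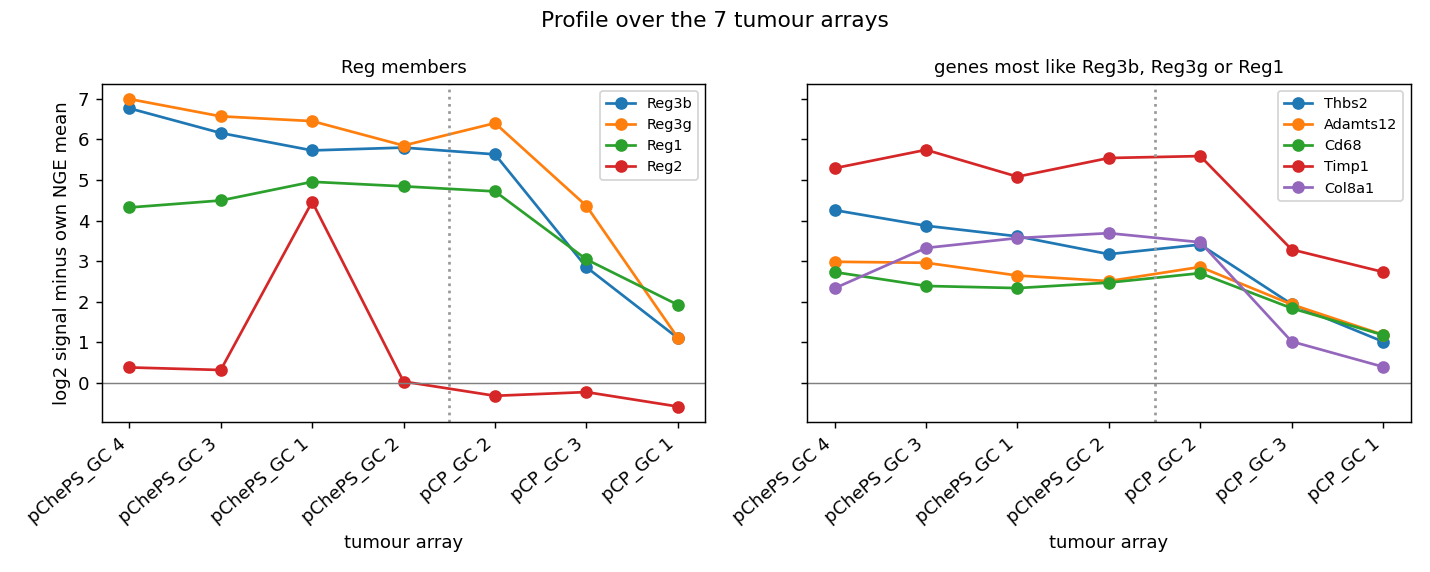
Log2 signal minus the gene's own NGE mean on the 7 tumour arrays, ordered by Reg3g within each group, for 4 Reg members (left) and 5 genes most like Reg3b, Reg3g or Reg1 (right). The dotted line separates pChePS_GC from pCP_GC arrays, and lines join points only to guide the eye. Reg3b and Reg3g drop together from pCP_GC replicate 2 to replicate 1, Reg1 runs flatter across pChePS_GC, and Reg2 peaks on pChePS_GC replicate 1.

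Genes around the Reg family, which the choice of members did not use, were tested with limma over all 19938 genes. The lists that hold them were chosen with earlier results of these data known, and the p-values do not allow for that choice. Of 93 genes on 6 lists 86 were measured. In pChePS_GC against NGE 26 rose and 15 fell, and in pCP_GC against NGE 23 rose and 22 fell, beside the shares of all genes given above. Against each other the tumour groups differed in 1 gene, Cd14, with 18 genes at an unadjusted p under 0.05. The share of all genes under that unadjusted limit was not counted, for this comparison or for the lists below. The 2 comparisons with NGE share the same 4 normal arrays.

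Genes of cytokines, among them known inducers of Reg genes, moved in both directions. Of 17 measured cytokine ligand genes 5 rose and 3 fell in pChePS_GC, and 4 rose and 6 fell in pCP_GC, with medians of 0.05 and -0.09. In pChePS_GC that is 29.4% higher and 17.6% lower, beside 18.7% and 23.4% of all genes. In pCP_GC it is 23.5% higher and 35.3% lower, near the 20% and 31.8% of all genes. Among genes that passed, Il1a and Il1b had the largest rises. Il6 differed by more than Il1b, by 3.09 (SE 1.15, limma adjusted p = 0.0512) and 2.31 (SE 1.25, limma adjusted p = 0.141), but did not pass; it was named after its values were seen. Il1a read 5.35 to 6.14 in NGE, 8.66 to 11.87 in pChePS_GC and 8.05 to 11.36 in pCP_GC, and rose by 4.87 (SE 0.73, limma adjusted p = 0.000486) and 4.06 (SE 0.78, limma adjusted p = 0.00198). Il1b rose by 2.98 (adjusted p = 0.00331) and 2.19 (adjusted p = 0.017) in limma, and the call in pCP_GC was lost without pCP_GC replicate 2 (adjusted p = 0.054) or replicate 3 (adjusted p = 0.0641). Il18 fell by 1.97 in pChePS_GC (limma adjusted p = 0.00899). In pCP_GC it fell by 1.35 (limma adjusted p = 0.0495, range over 19 alternatives 0.000481 to 0.14), a call lost in 12 of them, among these each removal of a single NGE or pCP_GC array or of pChePS_GC replicate 1 or 4 (adjusted p = 0.0532 to 0.14). Lif, a cytokine that signals through STAT3, rose by 1.17 in pChePS_GC (limma adjusted p = 0.0185) and by 0.97 in pCP_GC (limma adjusted p = 0.0432, range 0.00401 to 0.15). The latter was lost in 8 of 19 alternatives, among them each removal of a single NGE array or of pCP_GC replicate 2 or 3 (adjusted p = 0.0664 to 0.15). Il22 was not analysed here.

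The cytokine receptor list had 13 measured genes and also holds Il1rn, which encodes an antagonist and not a receptor. Of these genes 2 rose and 2 fell in pChePS_GC, and 3 rose and 3 fell in pCP_GC. That is 15.4% each way in pChePS_GC, beside 18.7% higher and 23.4% lower of all genes. In pCP_GC it is 23.1% each way, beside 20% and 31.8%. Osmr, the oncostatin M receptor, read 6.66 to 7.82 in NGE, 10.58 to 11.32 in pChePS_GC and 9.80 to 11.04 in pCP_GC, and rose by 3.85 (SE 0.31, limma adjusted p = 7.74e-06) and 3.32 (SE 0.33, limma adjusted p = 4.22e-05). Il1rn, whose product blocks the interleukin-1 receptor, rose by 4.21 and 3.70. Lifr fell by 1.35 and 0.91, and Il6ra, a chain of the interleukin-6 receptor, fell by 0.72 and 0.84. Il22ra1, the chain that gives epithelium its response to interleukin-22, differed by 0.65 (limma adjusted p = 0.231) and 0.54 (limma adjusted p = 0.35) and overlapped with NGE in both groups.

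In the list of STAT3 signalling and its feedback 6 of 15 measured genes rose and 0 fell in pChePS_GC (limma). There, 9 had an unadjusted p under 0.05 in either direction. In pCP_GC 4 rose and 1 fell, and the medians were 0.36 and 0.14. The shares were 40% higher and 0% lower in pChePS_GC, beside 18.7% and 23.4% of all genes. In pCP_GC they were 26.7% and 6.67%, beside 20% and 31.8%. Il4ra rose by 1.94 (limma adjusted p = 1.1e-05) and 1.29 (limma adjusted p = 0.000298). Ptpn2, a phosphatase that acts on JAK and STAT proteins, rose by 0.95 and 1.22, and Bcl3, a partner of NF-kB, by 0.88 and 0.72. The Ptpn2 rises depended on the processing, and the smallest over 19 alternatives were 0.35 and 0.61. Socs3, a feedback inhibitor induced by STAT3, read 9.08 to 9.50 in NGE, 10.25 to 11.13 in pChePS_GC and 9.52 to 10.08 in pCP_GC. It rose by 1.34 in pChePS_GC (SE 0.20, limma adjusted p = 0.000567, smallest difference over 19 alternatives 0.79) and by 0.60 in pCP_GC (SE 0.22, limma adjusted p = 0.04). The latter was lost in 8 of 19 alternatives, among them the removal of NGE replicate 1, 2 or 3 or of pCP_GC replicate 2 or 3 (adjusted p = 0.0669 to 0.135). With the mean over all of its probe sets it was 0.15 (adjusted p = 0.477, range over the alternatives 0.0131 to 0.477). Stat3 itself differed by 0.36 in pChePS_GC (limma adjusted p = 0.0639) and 0.09 in pCP_GC (limma adjusted p = 0.665), and the former passed in 3 of 19 alternatives, among them without pCP_GC replicate 2 (adjusted p = 0.0277, range 0.0277 to 0.153).

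Genes of epithelial defence were the longest list and held the most calls. Of 25 genes 11 rose and 2 fell in pChePS_GC, and 10 rose and 4 fell in pCP_GC, with medians of 1.17 and 0.22. The shares were 44% higher and 8% lower in pChePS_GC, beside 18.7% and 23.4% of all genes. In pCP_GC they were 40% and 16%, beside 20% and 31.8%. Lcn2, which binds bacterial siderophores, read 6.97 to 7.64 in NGE. Its values were 12.10, 11.39, 12.78 and 12.58 on the pChePS_GC arrays and 9.63, 10.57 and 11.23 on the pCP_GC arrays, so the 3 groups did not overlap. It rose by 4.98 (SE 0.36, limma adjusted p = 3.9e-06) and 3.24 (SE 0.39, limma adjusted p = 0.000133). Saa3, an acute phase protein, rose by 3.80 and 4.90, Wfdc2, a protease inhibitor, by 3.44 and 3.36, and Cxcl5, a chemokine for neutrophils, by 3.40 and 2.70. Within pCP_GC the highest array was replicate 3 for Lcn2, Saa3 and Cxcl5, whereas it was replicate 2 for Reg1, Reg3b and Reg3g. Lcn2 was 1.74 higher in pChePS_GC than in pCP_GC (SE 0.39, limma adjusted p = 0.0938). Of 8 neutrophil markers 7 rose in pChePS_GC and 6 in pCP_GC, in each case with S100a8 and S100a9, which are also on the defence list. Summed neutrophil levels were 838.7 to 1019 in NGE, 2460 to 5510 in pChePS_GC and 1589 to 3761 in pCP_GC.

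**Figure D4:**
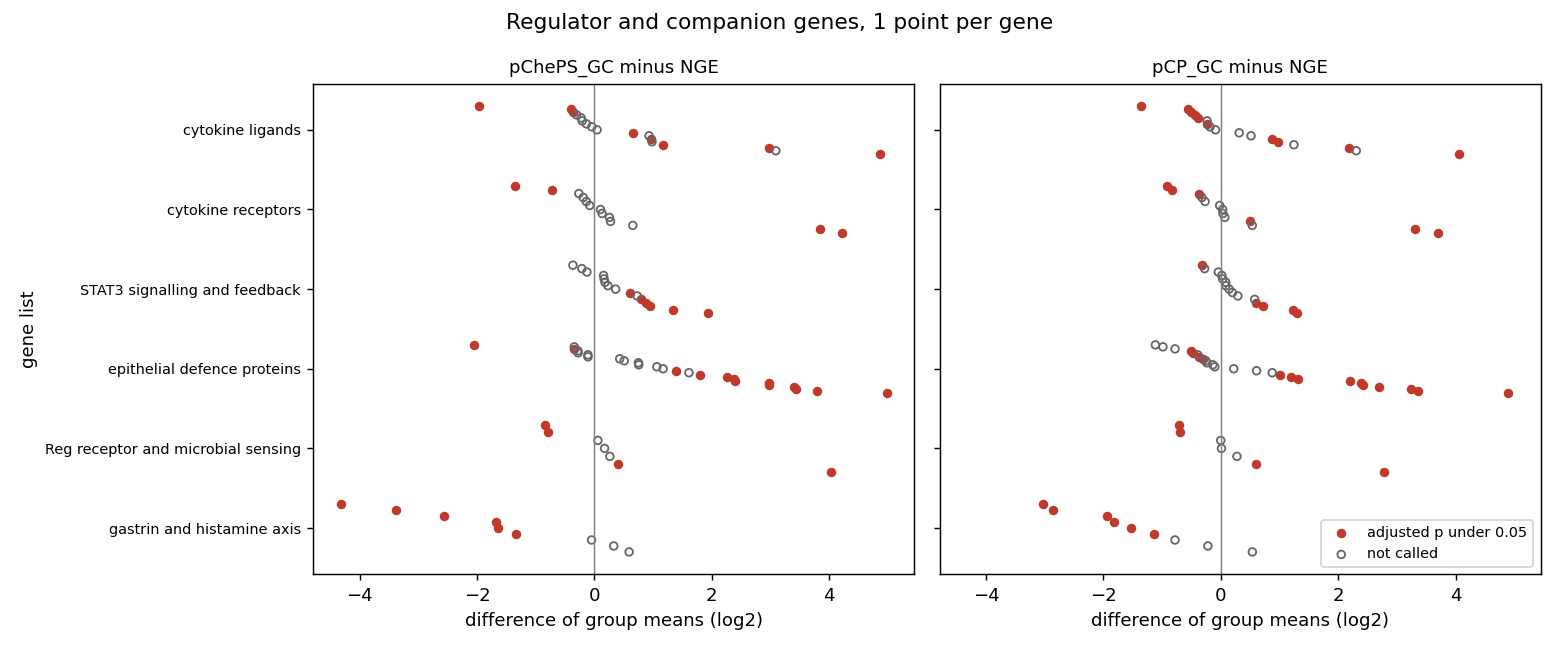
Difference from NGE on the log2 scale for each measured gene of 6 lists (1 point per gene, spread vertically within its list by size), in pChePS_GC on the left and pCP_GC on the right; filled points passed at an adjusted p under 0.05 (limma), open points did not. The list of the gastrin and histamine axis lies to the left, with 6 of 9 genes lower in each tumour group, and the defence proteins extend to the right, up to 4.98 and 4.90.

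Among 7 measured genes of the Reg receptor and of microbial sensing, 2 rose and 2 fell in each tumour group, 28.6% each way. Of all genes 18.7% rose and 23.4% fell in pChePS_GC, and 20% rose and 31.8% fell in pCP_GC. Extl3, which encodes a reported receptor of Reg proteins, rose by 0.59 in pCP_GC (SE 0.15, limma adjusted p = 0.00849) and differed by 0.26 in pChePS_GC (SE 0.14, limma adjusted p = 0.15). The difference between the tumour groups was -0.33 (limma adjusted p = 0.314). Cd14, a co-receptor for bacterial lipopolysaccharide and also a macrophage marker, rose by 4.03 in pChePS_GC (SE 0.11) and 2.78 in pCP_GC (SE 0.12). It was 1.24 higher in pChePS_GC than in pCP_GC (SE 0.12, limma adjusted p = 0.00484, range over 19 alternatives 0.00243 to 0.102). That call was lost with only these 2 groups in the fit (adjusted p = 0.102). Tlr4, which takes lipopolysaccharide from Cd14, fell by 0.84 and 0.70, and its adaptor Ticam1 fell by 0.80 and 0.71. Tlr2 rose by 0.41 in pChePS_GC (limma adjusted p = 0.0348), a call lost in 9 of 19 alternatives (range 0.0103 to 0.0973). These include the removal of NGE replicate 1, 3 or 4 or of pChePS_GC replicate 1, 2 or 4 (adjusted p = 0.0506 to 0.0973).

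Reg1 is tied in the normal stomach to the gastrin and histamine axis. Of the 9 genes of that list 0 rose and 6 fell in each tumour group (limma; 6 and 7 genes had an unadjusted p under 0.05 in either direction), with medians of -1.65 and -1.53, beside 23.4% and 31.8% of all genes that fell. Ghrl, the ghrelin gene, fell by 4.32 (SE 0.55, limma adjusted p = 0.000187) and fell by 2.85 (SE 0.60, limma adjusted p = 0.00304), and Sst, the somatostatin gene, fell by 3.38 and 3.03. Hrh2, the histamine receptor of parietal cells, fell by 1.67 and 1.83. Chga, a granule protein of endocrine cells, fell by 2.56 and by 1.94, the latter with a limma adjusted p of 0.0296 that was lost in 5 of 19 alternatives (range 0.00143 to 0.105). Those were the removal of NGE replicate 2, 3 or 4 or of pCP_GC replicate 2 or 3 (adjusted p = 0.055 to 0.105). These falls stand beside the lower parietal cell sums given above. Hdc, the histamine synthesis gene of the list, did not pass, at -0.05 (limma adjusted p = 0.911) and -0.78 (limma adjusted p = 0.0807). Nor did Chgb, at 0.59 (limma adjusted p = 0.487) and 0.54 (limma adjusted p = 0.553). Hdc and Chgb were named after their values were seen. Gast, the gastrin gene, read 7.92 to 8.11 in NGE and 7.37 to 7.99 on 6 of the 7 tumour arrays, with 10.39 on pChePS_GC replicate 2, and differed by 0.33 (limma adjusted p = 0.619) and -0.22 (limma adjusted p = 0.756). On that array Reg1 read 13.10, within the range of its group.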

How the data were processed

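Biotin-labelled total RNA (AllPrep kit) of 11 mouse stomach samples was hybridised to 1 Affymetrix array each, per the labels. As deposited, a probe set has a normalized log2 signal on every array; that the scale is log2 was inferred from values between 2.88 and 14.6. Affymetrix Expression Console is the tool in the submitters' processing notes. Its version and algorithm, the annotation and the build were not given in the sources used here. These steps decide what dim probe sets read, so small differences of dim genes are the least sure.

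The platform annotation gave 1 gene symbol for 21789 of 35556 probe sets, several for 1621 and none for 12146. By gene number 21698 matched RefSeq genes (GRCm38.p6) and 0 symbols changed. A gene is represented by its brightest probe set on average, for 19938 genes, and dim genes were kept. In limma 3.58.1 (R 4.3.3, lmFit and eBayes) a mean per group was fitted on all 11 arrays together. Two-sided p-values were adjusted by the Benjamini-Hochberg method over 19938 genes, with 0.05 as the limit for the adjusted value. The scripts were tested on simulated data.

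The Reg members, gene lists and marker lists were chosen with earlier results of these data known. No p-value of a member is therefore printed. Members that passed are counted as a description only, and nothing is read from those counts. The p-values of listed genes do not allow for that choice. In each list and comparison, up to 4 genes with the largest absolute difference among those that passed are named, and Il22, Il22ra1, Stat3, Socs3, Extl3, Gast and Lcn2 whatever their value. Likeness was ranked by Pearson r over the 7 tumour arrays for members with a range of at least 2 log2 units there, among genes with a range of at least 1, leaving out predicted and non-coding models. Alternatives changed the variance prior, groups fitted, centring, dim-gene filter, probe set summary, array weights, replicate block, threshold and arrays.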

Additional observations from a re-analysis of the deposited data

Results flagged for a closer look

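Among 70 groups of 4 arrays checked for the genes named here (35 genes in NGE and pChePS_GC), 5 had an array that stood apart from the rest by Dixon's 95% criterion, which chance meets in about 1 of 20 groups. Reg2 read 10.16 on pChePS_GC replicate 1, against 5.73 to 6.08 on the rest of that group. Ghrl read 9.55 on pChePS_GC replicate 2, against 8.04 to 8.17. Cxcl5 read 9.19 on pChePS_GC replicate 3, under the 10.16 to 10.25 of the others. In NGE, Lif read 6.82 on replicate 2, under the 7.19 to 7.26 of the others, and Ticam1 read 10.28 on replicate 1, above the 9.94 to 9.96 of the others. The pCP_GC group, with 3 arrays, was too small for this criterion.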

How the results depend on the processing

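The number of listed genes that passed was 41 in pChePS_GC against NGE and stayed within 1.5 times that under every alternative run (39 to 44 with an array left out). In pCP_GC against NGE it was 45, or 24 with a change of at least 2-fold also required (36 to 47 with an array left out). Between the tumour groups it was 1 gene, 0 with only these groups fitted, 2 with array weights, and 1 to 2 with an array left out (2 without pChePS_GC replicate 1 and without pCP_GC replicate 2). With the replicate number as a block it was 45, 42 and 0. Deviations of same-numbered arrays correlated between -0.15 and 0.16, so the numbers were not taken as pairs. No difference of Reg1, Reg3b, Reg3g or Reg2 changed sign under an alternative run. Signs turned for 3 small differences that did not pass: Reg3a in pCP_GC against NGE, Reg3d in pChePS_GC against NGE, and Reg4 between tumour groups. With array weights the pCP_GC difference from NGE was 2.22 for Reg3b and 2.78 for Reg3g, and the difference between tumour groups was 3.90 and 3.66. Of the tests of named genes under alternatives, 57 lost a call and 3 gained one, none with a reversed direction; causes were not tested. Dim signal limits Reg3a, Reg3d, Reg4 and most values of Reg2, and 3 arrays limit pCP_GC.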
